A study of Homo sapiens with 24 samples.

Results

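The genes described here are 10 genes of the goblet and secretory cell lineage of the intestine, namely *REG4*, *TFF1*, *TFF2*, *TFF3*, *SPINK1*, *SPINK4*, *SPDEF*, *ATOH1*, *AGR2* and *AGR3*. They were taken by name, through their Ensembl identifiers, from the 58051 gene identifiers counted in each library. RNA was sequenced from HT29, HCT116 and SW480, which are established human colorectal cancer cell lines. HT29 and SW480 carry inactivating mutations in *APC*, and HCT116 carries a gain-of-function mutation in *CTNNB1*, the gene for β-CATENIN. Each line was represented by 2 clones with both *CTNNB1* alleles intact (WT) and 2 clones in which exon 7 had been deleted from both alleles with CRISPR/Cas9 (KO). The WT clones had passed through the same editing and cloning steps and had kept the normal sequence. Every clone grew from a single sorted cell and was sequenced in rounds A and B, giving 4 libraries per line and genotype and 24 in all. The clones were WT 11, WT 40, KO 28 and KO 38 in HT29, WT 4, WT 6, KO 44 and KO 47 in HCT116, and WT 4, WT 5, KO 17 and KO 21 in SW480. A library is named by clone and round, as in KO 28A. No agent other than the editing reagents was applied, and the clones were grown in the same medium.

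Secretory cells of the gut arise where Notch signaling is low. Notch activity induces HES1, which represses *ATOH1*, the transcription factor that commits progenitors to the secretory lineages, and SPDEF then drives the maturation of goblet cells. Mature goblet cells release mucins together with trefoil peptides, and disulfide isomerases of the endoplasmic reticulum help to fold these cysteine-rich proteins.

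The values are normalized counts, that is, reads per gene divided by 1 size factor per library, and they are not corrected for gene length. The libraries held 22297049 to 29068378 reads assigned to genes. With 3 reads or fewer in a library, a gene is said to be at the floor there, a limit that covers counting error only. The transcript of *CTNNB1*, which checks the labels, was lower in every KO library (187 to 1312) than in every WT library (5883 to 50939), and in KO libraries it had 4.98% of the WT mean in HT29, 1.83% in HCT116 and 2.18% in SW480. Among markers of colonic epithelium, *EPCAM* was at 645 or more in every library, whereas the intestinal transcription factor *CDX2* did not exceed 19.9 in HT29, and *CDH1* (E-cadherin) did not exceed 85.9 in SW480. Of 14 fibroblast, immune and endothelial markers, 10 were at the floor in all HT29 WT libraries and 9 in all HT29 KO libraries. *PTPRC*, *COL3A1* and *DCN* were among them in both genotypes. Summed over the 14, the level was 35.5 to 352 in WT libraries and 306 to 1334 in KO libraries, and *LUM* (lumican), at 0 in the 4 WT libraries, was at 82.5 and 108 in KO 28 and at 1125 and 1111 in KO 38. The part of these levels in the results for HT29 was not tested. In a bulk sample, fewer cells of a type and less RNA per cell cannot be told apart.

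The HCT116 library KO 47A stood apart from the other HCT116 libraries. Of 14 genes that had a mean of at least 1000 in HT29 and no read in the other 7 HCT116 libraries, 11 had reads in KO 47A, 48 reads in total. Found in the same way, such genes numbered 3 for each of the other HCT116 libraries, of which 0 had reads, except 4 for KO 44A, of which 1 had reads. The 10 genes together had 26 reads in KO 47A and 3 to 12 in the others, and *SPINK1* and *AGR3* had reads in no other HCT116 library. Their part in the comparisons that use HCT116 KO libraries was not tested.

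The 250 bases upstream of the annotated start are printed for 4 genes, *ATOH1* as the lineage factor and *REG4*, *SPINK1* and *AGR2* because they were higher in HT29 KO libraries. The sequences are from RefSeq on GRCh38.p14, on the strand of the gene and 5′ to 3′. Capitals mark matches on either strand to CTTTGAT (the core of a TCF/LEF site), TGTTTAC (a forkhead site of the FOXA type) or CAGCTG (an E-box), which do not overlap each other here. The windows are chr4:93828503-93828752 for *ATOH1* (plus strand), chr7:16805000-16805249 for *AGR2* (minus strand), chr5:147831672-147831921 for *SPINK1* (minus strand) and chr1:119811461-119811710 for *REG4* (minus strand).
ATOH1: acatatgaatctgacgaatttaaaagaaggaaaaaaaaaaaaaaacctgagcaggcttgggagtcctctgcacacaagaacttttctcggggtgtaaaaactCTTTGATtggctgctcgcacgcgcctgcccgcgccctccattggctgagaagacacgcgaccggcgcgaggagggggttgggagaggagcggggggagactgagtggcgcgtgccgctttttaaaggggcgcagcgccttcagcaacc
AGR2: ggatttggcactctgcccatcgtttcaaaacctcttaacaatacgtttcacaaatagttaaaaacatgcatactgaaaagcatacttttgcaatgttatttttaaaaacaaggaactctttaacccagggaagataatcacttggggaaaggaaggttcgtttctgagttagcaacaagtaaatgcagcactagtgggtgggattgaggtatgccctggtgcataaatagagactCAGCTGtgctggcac
SPINK1: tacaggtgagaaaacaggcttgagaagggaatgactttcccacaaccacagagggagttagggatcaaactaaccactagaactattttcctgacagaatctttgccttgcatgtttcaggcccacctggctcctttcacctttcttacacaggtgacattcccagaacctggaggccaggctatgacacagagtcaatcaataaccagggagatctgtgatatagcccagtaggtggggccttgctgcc
REG4: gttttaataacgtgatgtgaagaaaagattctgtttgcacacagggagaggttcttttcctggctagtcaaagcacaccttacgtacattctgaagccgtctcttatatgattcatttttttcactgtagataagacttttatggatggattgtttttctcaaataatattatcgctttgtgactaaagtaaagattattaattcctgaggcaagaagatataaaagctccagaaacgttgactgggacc
Windows were found for 7 of the 10 genes, the others being *TFF1*, *TFF2* and *TFF3*. CTTTGAT was present in 1 of the 7, *ATOH1*, from 148 to 142 bases before the start. CAGCTG was present in 1, *AGR2*, from 15 to 10 bases before the start, and TGTTTAC in 0. Over 27305 windows of the same length the shares were 2.28% for CTTTGAT, 2.98% for TGTTTAC and 13.8% for CAGCTG. A match is a description of the sequence and not of binding.

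In WT cells, the 10 genes were read mainly in HT29. The 3 lines differed in *AGR2*, *SPDEF*, *SPINK1*, *TFF1* and *TFF2*, each of which was higher in HT29 WT than in HCT116 WT and SW480 WT libraries. In HT29 WT, *AGR2* had 1433 ± 613 normalized counts (SD, n = 4), *SPDEF* 486 ± 277, *SPINK1* 277 ± 300, *TFF2* 126 ± 106 and *TFF1* 82.6 ± 44.1. In the 4 HCT116 WT libraries none of these 5 genes had more than 3 reads in a library, and in SW480 WT the same held for *AGR2*, *SPINK1* and *TFF1*.

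Differences between WT lines were tested in a fit over all 24 libraries with limma on log2 of the value plus 1, with Benjamini-Hochberg adjustment over all 18609 genes tested and the study's thresholds, an adjusted p under 0.05 and an absolute log2 fold change over 1. Against HCT116, 5 of 7 tested genes of the 10 were called higher in HT29, where 17.2% of all genes tested were called higher. Against SW480 the same 5 were called, where 14.8% of all genes were. *REG4* and *AGR3* were tested and not called. *AGR2*, *SPDEF*, *SPINK1* and *TFF1* entered these tests through their HT29 libraries, and *REG4* and *AGR3* did so as well, so that the filter itself favours this direction and the counts are a description. Because a line at the floor leaves no fold to fit, differences from a line with 0 reads are given as bounds against a floor of 3 reads per library. *SPINK1* was at least 99.2-fold, *TFF2* at least 45.1-fold and *TFF1* at least 29.6-fold higher in HT29 WT than in HCT116 WT, where each had 0 reads. *AGR2* was at least 493-fold higher in HT29 WT than in SW480 WT, where it also had 0 reads. *SPDEF* had 5 reads in the 4 HCT116 WT libraries and 6 in the 4 SW480 WT libraries, too few for a fold.

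*TFF2* was the only gene of the 10 with more than 4 reads in a SW480 WT library, at 26.3, 10.1, 15.4 and 13.7 in WT 4A, 4B, 5A and 5B. It was higher there than in HCT116 WT, where all 4 libraries had 0 reads (log2 fold change −4.04 for HCT116 against SW480, standard error 0.66, adjusted p = 1.5e-05 by limma). It was the 1 gene of the 10 called lower in that comparison, in which 22.9% of all genes were. HT29 WT exceeded SW480 WT 7.68-fold in *TFF2* as a ratio of means, and every HT29 WT library was above every SW480 WT library. This difference (log2 fold change 2.42, standard error 0.66, adjusted p = 0.00316, limma) rested partly on WT 40, without which it was 1.12 and was not called.

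**Figure D1:**
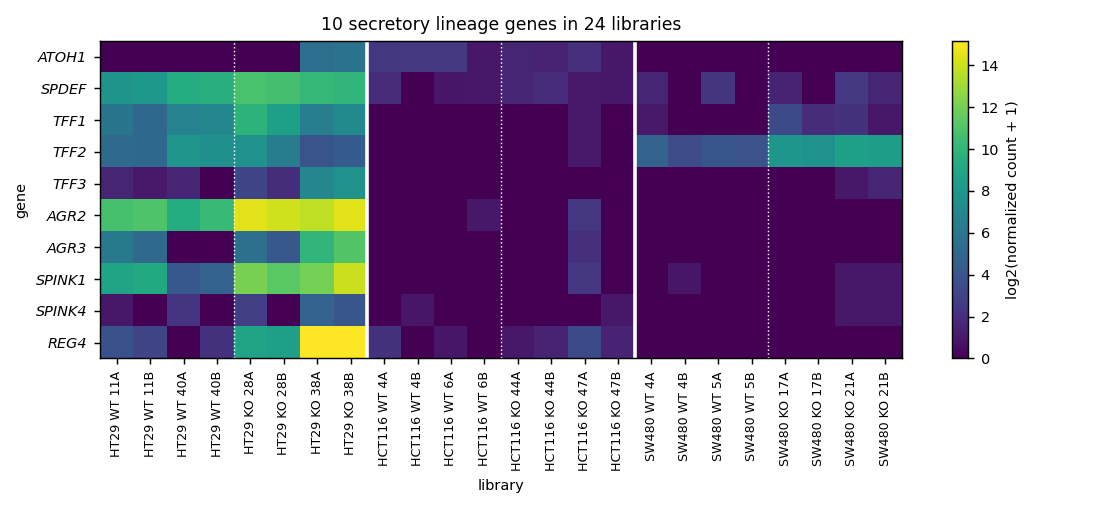
Log2 of the normalized count plus 1 (colour) of the 10 genes in the 24 libraries, with solid lines between cell lines and dotted lines between WT and KO. Apart from *TFF2* in SW480, the bright cells lie in HT29, where *AGR2* is highest among WT libraries and *REG4* reaches 36898 in KO 38.

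Loss of β-CATENIN in HT29 was accompanied by higher *AGR2*, *SPINK1* and *REG4*. *AGR2* rose from 1433 ± 613 to 19135 ± 4842 (SD, n = 4 each), *SPINK1* from 277 ± 300 to 6685 ± 6166, and *REG4* from 6.33 ± 5.79 to 18492 ± 20865. With limma over 14921 genes, 3 of the 7 genes tested were called higher, where 1.90% of all genes were, and 0 were called lower, where 0.402% were. At an unadjusted p under 0.05, 6 of the 7 were higher and 0 lower, against 10.6% and 5.55% of all genes tested. *TFF3*, *SPINK4* and *ATOH1* had a value of 10 in fewer than 4 of the 8 libraries and were not tested. In 5 of the 10 genes, *REG4*, *TFF3*, *SPINK1*, *SPDEF* and *AGR2*, every KO library was above every WT library. Leaving out *TFF3*, which was not tested, this held for 4 of 7, and among all genes tested it held for 8.31%. Among the WT libraries, *REG4* reached 10 in WT 11A alone and *AGR3* in those of WT 11 alone. Without their KO libraries neither would have been tested, so that the filter itself favours this direction and the counts are a description. The 4 libraries of a genotype came from 2 clones, and the spread between clones was large for most of these genes, so that the values are given by clone below.

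**Figure D2:**
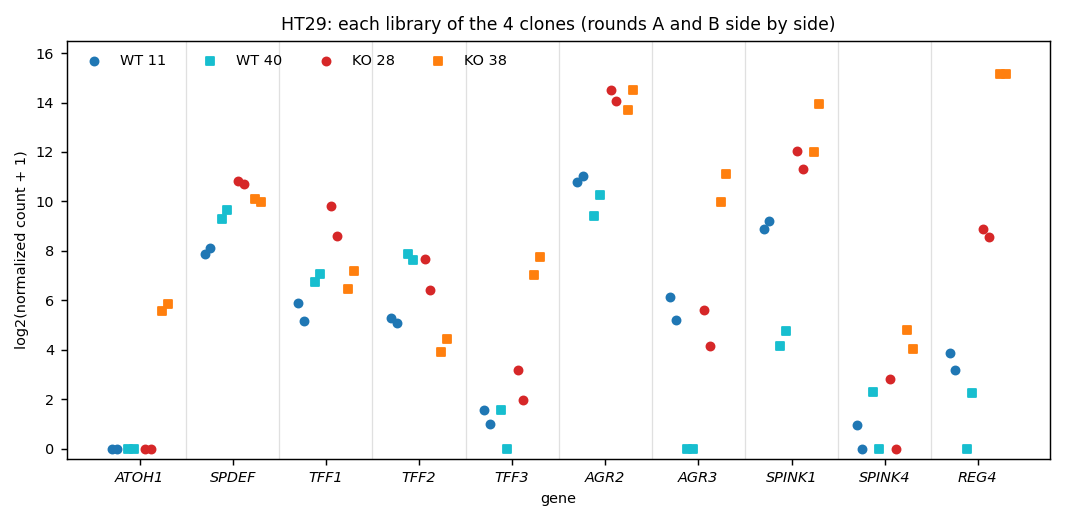
Log2 of the normalized count plus 1 of the 10 genes in the 8 HT29 libraries, by clone, with rounds A and B side by side. In *AGR2* both KO clones sit together above both WT clones, whereas *REG4*, *AGR3*, *TFF3* and *ATOH1* are highest in KO 38 and *TFF1* in KO 28.

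*ATOH1* (ENSG00000172238; GRCh37, chromosome 4 from 94749904 to 94752115) encodes the factor at the top of the secretory lineages. It had 0 reads in all 4 HT29 WT libraries and in KO 28A and KO 28B, and it was at 46.5 in KO 38A and 57.0 in KO 38B. The transcript was therefore detected in 1 of 4 HT29 clones. KO 38 was at least 17.4-fold higher than KO 28 and at least 16.4-fold higher than the WT libraries. The difference between the KO clones passed the test (log2 difference of KO 28 against KO 38 −5.71, standard error 0.62, adjusted p = 0.000822, limma). *ATOH1* entered this test through KO 38 alone, so that the filter itself favours this direction. In HCT116, *ATOH1* had 5 reads in each of WT 4A, WT 4B and WT 6A, 1 in WT 6B and at most 3 in a KO library, and in SW480 it had 0 reads in all 8 libraries.

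*SPDEF* (ENSG00000124664; chromosome 6 from 34505579 to 34524110) encodes the ETS factor of goblet cell maturation. It was at 234 and 274 in WT 11A and 11B and at 631 and 803 in WT 40A and 40B. In KO cells it was at 1801 and 1658 in KO 28A and 28B and at 1080 and 998 in KO 38A and 38B. The genotypes did not overlap, but the log2 fold change of 1.65 (standard error 0.42) missed the threshold in limma (adjusted p = 0.0837). DESeq2 called it, at 1.51 with an adjusted p of 0.00932, and limma called it without WT 40, at 2.40 with an adjusted p of 0.0186. Without WT 11 it was 0.91 with an adjusted p of 0.226. WT 40 exceeded WT 11 2.82-fold (log2 difference of WT 11 against WT 40 −1.49, standard error 0.20, adjusted p = 0.00344 by limma), and the difference between KO 28 and KO 38 was 1.66-fold and not called.

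The trefoil genes, whose peptides are secreted with mucus and protect the epithelium, lie on the minus strand of chromosome 21 in the order *TFF3* (43731777 to 43735519), *TFF2* (43766466 to 43771106) and *TFF1* (43782391 to 43786644) on GRCh37. The gaps between them are 30947 and 11285 bases. Despite this neighbourhood they had different patterns. *TFF1* (ENSG00000160182) was at 58.6 and 34.5 in WT 11, at 106 and 132 in WT 40, at 888 and 388 in KO 28, and at 87.3 and 145 in KO 38. Both KO 28 libraries were thus above all WT libraries, whereas KO 38 overlapped their range. Its log2 fold change of 1.81 (standard error 0.72) was not called in limma (adjusted p = 0.262), and KO 28 was 5.49-fold higher than KO 38 (adjusted p = 0.0122). DESeq2 called *TFF1* in HT29, at 2.19 with an adjusted p of 0.0202, and limma called it without KO 38, at 2.99 with an adjusted p of 0.0333. Without KO 28 it was 0.62 with an adjusted p of 0.491.

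*TFF2* (ENSG00000160181) was at 37.4 and 32.4 in WT 11 and at 235 and 198 in WT 40. It was at 205 and 84.1 in KO 28 and at 14.2 and 20.7 in KO 38. WT 11 and KO 38 were low and WT 40 and KO 28 high, so that the genotypes overlapped and the log2 fold change was −0.84 (standard error 0.96, adjusted p = 0.686, limma). It was 0.45 without WT 40 and 0.59 without KO 38. Both differences between clones were called. WT 40 was 6.20-fold above WT 11 (adjusted p = 0.0102) and KO 28 was 8.27-fold above KO 38 (adjusted p = 0.00412, limma).

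*TFF3* (ENSG00000160180), the trefoil gene most typical of intestinal goblet cells, was at 1.92, 1.01, 1.98 and 0 in the WT libraries. It was at 8.05 and 2.94 in KO 28 and at 129 and 214 in KO 38. KO 28 had 11 reads in its 2 libraries together, and KO 38 had 301. KO 38 was 31.2-fold higher than KO 28 as a ratio of means (adjusted p = 0.00364, limma), which missed the threshold with a pseudocount of 0.1 (adjusted p = 0.0517). *TFF3* entered this test through KO 38 alone, so that the filter itself favours this direction.

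*AGR2* (ENSG00000106541; chromosome 7 from 16831435 to 16873057) encodes a protein disulfide isomerase of the endoplasmic reticulum that is needed for mucin folding. It was at 1751 and 2074 in WT 11 and at 675 and 1230 in WT 40. It was at 23108 and 16907 in KO 28 and at 13361 and 23166 in KO 38. The lowest KO library was above the highest WT library, and the KO clones overlapped each other. The log2 fold change was 3.82 (standard error 0.35, adjusted p = 9.5e-04, limma), a 13.4-fold ratio of means. With each clone left out in turn it ran from 3.29 without WT 40 to 4.35 without WT 11, and it was called in each of these 4 fits. With the rounds of each clone averaged, which leaves 2 values per genotype, the difference was 3.82 with an adjusted p of 0.177. KO 28 and KO 38 differed by 0.17 on the log2 scale (standard error 0.36, adjusted p = 0.761). *AGR2* was the 183rd to 248th most counted gene in KO 38 and the 121st and 200th in KO 28, and it was between the 3010th and 6656th in WT libraries.

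*AGR3* (ENSG00000173467), its paralogue 25979 bases away, did not share this pattern. It was at 70.1 and 35.5 in WT 11 and at 0 in both WT 40 libraries. It was at 48.3 and 16.6 in KO 28 and at 1013 and 2214 in KO 38. KO 28 lay within the WT range and KO 38 above it, and the log2 fold change of 4.88 (standard error 1.94) was not called (adjusted p = 0.257, limma). KO 38 was 49.7-fold above KO 28 (adjusted p = 7.9e-04). WT 11 was at least 15.7-fold above WT 40, in which no read was found (adjusted p = 0.00114).

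*SPINK1* (ENSG00000164266; chromosome 5 from 147204135 to 147211234) encodes a secreted inhibitor of trypsin. It was at 468 and 597 in WT 11 and at 16.8 and 26.3 in WT 40. It was at 4235 and 2506 in KO 28 and at 4141 and 15856 in KO 38. All KO libraries were above all WT libraries, while the WT clones differed 24.7-fold (adjusted p = 0.00263) and the rounds of KO 38 differed 3.83-fold. The log2 fold change was 5.57 (standard error 1.19, adjusted p = 0.0473, limma). This call was lost in 16 of 21 alternatives, among them edgeR (adjusted p = 0.0976) and the fit with the round as a replicate block (0.0841), with the direction kept. In limma the adjusted p was 0.104 with the clone as a random effect and 0.766 with the rounds of each clone averaged. Without WT 40 the log2 fold change was 3.28 (adjusted p = 0.0887), and without WT 11 it was 7.87 (adjusted p = 0.00422).

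*SPINK4* (ENSG00000122711; chromosome 9 from 33218363 to 33248565), a related inhibitor of goblet cells, was at 0.960, 0, 3.95 and 0 in the WT libraries. It was at 6.03 and 0 in KO 28 and at 26.6 and 15.6 in KO 38. The 2 KO 38 libraries were above all others, but the difference between the KO clones was not called (log2 difference −3.01, standard error 1.12, adjusted p = 0.103). The annotated span of *SPINK4* overlaps that of *BAG1*, and the library kit does not mark strand.

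*REG4* (ENSG00000134193; chromosome 1 from 120336640 to 120354203) encodes a secreted C-type lectin of the regenerating family. It was at 13.4 and 8.11 in WT 11 and at 0 and 3.76 in WT 40. It was at 471 and 378 in KO 28 and at 36222 and 36898 in KO 38. Both KO clones were above all WT libraries, and KO 38 was 86.2-fold above KO 28 (log2 difference of KO 28 against KO 38 −6.43, standard error 0.63, adjusted p = 5.5e-04). In KO 38, *REG4* was the 53rd and 105th most counted gene. Its log2 fold change of 9.62 (standard error 1.68, adjusted p = 0.0219, limma) was the highest of the 14921 genes, which *REG4* entered through its KO libraries. The call was lost in 10 of 19 alternatives, with an adjusted p from 0.0545 to 0.0702 where WT 11A, WT 11B, WT 40A, WT 40B, KO 38A or KO 38B was left out, and of 0.0655 without WT 11 and 0.156 without WT 40. Without 1 of the KO clones, too few libraries reached a value of 10 for *REG4* to be tested.

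**Figure D3:**
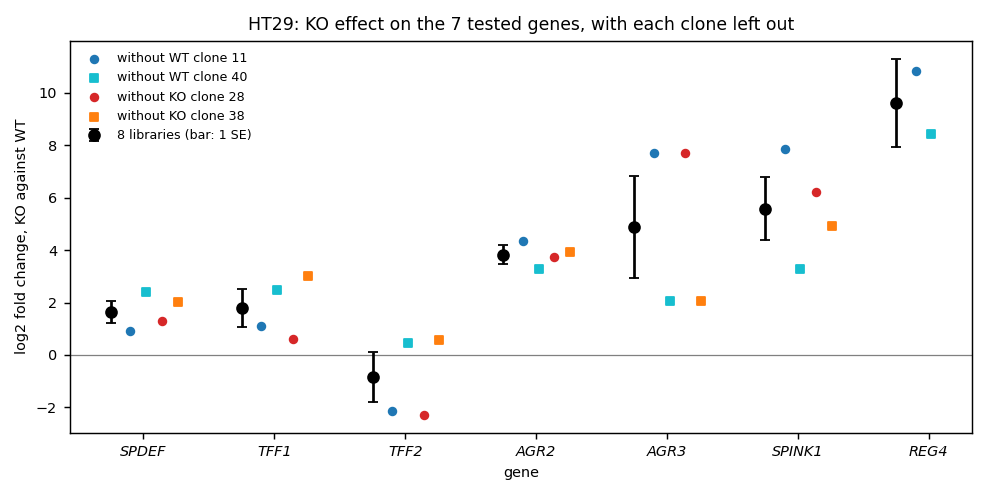
Log2 fold change of KO against WT in HT29 for the 7 genes tested, over all 8 libraries (black, bar 1 standard error) and with 1 clone left out (colours). *AGR2* stayed between 3.29 and 4.35, whereas *TFF2* changed sign and *AGR3* ran from 2.05 to 7.72. *REG4* has no point without a KO clone.

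Per kilobase of annotated exon, *AGR2* had the highest mean level of the 10 in HT29 WT, at 518 normalized counts per kb, followed by *SPDEF* at 254, *SPINK1* at 203, *TFF2* at 179.9 and *TFF1* at 168. The clones differed in this order, with *SPDEF* (375 per kb) above *AGR2* (345) and *SPINK1* (15.8) in WT 40, and *SPINK1* (391) above *SPDEF* (133) in WT 11. In KO 28 the order was led by *AGR2* (7239 per kb), *SPINK1* (2477) and *TFF1* (1296), and in KO 38 by *REG4* (10709), *SPINK1* (7347) and *AGR2* (6608). The rounds of KO 38 differed in the place of *SPINK1*, which was below *AGR2* in KO 38A (3043 against 4834 per kb) and above *REG4* in KO 38B (11650 against 10808). Between clones of one genotype, 4 of the 10 genes were called for WT 11 against WT 40, namely *TFF2*, *SPINK1*, *SPDEF* and *AGR3*, where 7.51% of all 16157 genes tested were called. For KO 28 against KO 38, 6 of the 10 were called, namely *REG4*, *TFF1*, *TFF2*, *TFF3*, *ATOH1* and *AGR3*, where 13.5% of all genes were. Of these, *ATOH1* and *TFF3* reached 10 in KO 38 alone and entered the test through it. For them the filter itself favours this direction, and the count is a description. *TFF1* and *TFF2* were higher in KO 28, and the other 4 in KO 38. These tests of clones rest on the spread between the 2 rounds and say nothing of genotype.

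In HCT116, no gene of the 10 had a value of 10 in a library, so that none was tested against WT. The highest was *REG4* in KO 47A at 9.63, with 9 reads, followed by *ATOH1* at 4.64 in WT 4B and by *SPINK1* and *AGR2* at 4.28 each in KO 47A. In the other 3 KO libraries *REG4* had at most 2 reads and *AGR2* had 0. In WT libraries *REG4* had at most 4 reads. At this depth a difference between KO and WT in HCT116 was not detectable.

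In SW480, *TFF2* was higher in KO than in WT libraries, and the other 9 genes were not tested with the main filter. It was at 248 and 221 in KO 17A and 17B and at 407 and 364 in KO 21A and 21B, against 10.1 to 26.3 in the WT libraries. The groups did not overlap, and the mean was 18.9-fold higher in KO cells (310 ± 89.5 against 16.4 ± 6.96, SD, n = 4 each). The log2 fold change was 4.20 (standard error 0.29, adjusted p = 1.4e-06, limma), and it ran from 3.84 to 4.55 over 21 alternatives, in all of which it was called. *TFF2* was the 1 gene of the 10 tested in SW480, where 10.7% of all 16325 genes were called higher, 6.76% lower, and 25.3% had every KO library above every WT library. The clones did not differ by the test, with a log2 difference of 0.16 (standard error 0.33) for WT 4 against WT 5, where 2.04% of genes were called, and of −0.71 (standard error 0.33) for KO 17 against KO 21, where 5.04% were. Of its neighbours *TFF1* was at 1.01, 0, 0 and 0 in WT and at 9.41, 2.75, 3.74 and 0.960 in KO libraries. With no filter on low values *TFF1* was called higher (log2 fold change 1.87, adjusted p = 0.0204, limma). *TFF3* had at most 2 reads in a library. *SPDEF* ran from 0 to 4.67, and none of the other 6 genes had more than 1 read in a SW480 library.

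**Figure D4:**
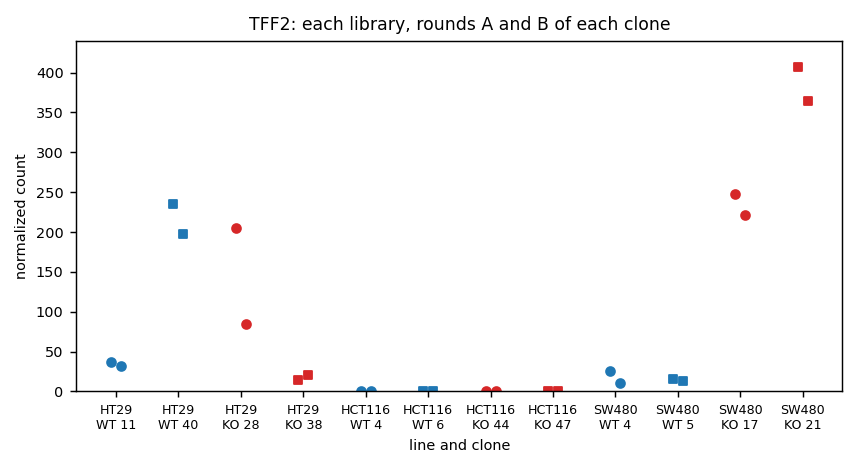
Normalized counts of *TFF2* in each library of the 12 clones, WT in blue and KO in red, with circles and squares for the 2 clones of a genotype. The SW480 KO libraries lie between 221 and 407, above the SW480 WT libraries, whereas the HT29 genotypes overlap and the HCT116 libraries lie at 0 to 1.07.

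The difference of the KO effects between lines was tested as an interaction over all 24 libraries. It was called for 4 of 7 tested genes between HT29 and SW480 (12.3% of 18609 genes), 3 of 7 between HT29 and HCT116 (5.39%) and 1 of 7 between HCT116 and SW480 (10.0%). *TFF2* between HT29 and SW480 was the 1 case with reads above the floor in both lines, and the KO effect in HT29 minus that in SW480 was −5.04 on the log2 scale (standard error 0.94, adjusted p = 4.9e-04, limma). With the rounds averaged it was −4.89 with an adjusted p of 0.0967. In the other cases, *REG4*, *SPINK1* and *AGR2* against either line and *TFF2* in HCT116, 1 line was at or near the floor in both genotypes. Their sizes therefore depend on the value added before taking logs. *REG4*, *SPINK1* and *AGR2* reached 10 in HT29 libraries alone and entered these tests through them, *REG4* mainly through KO libraries. For these genes the filter itself favours a difference from HT29, and the counts are a description.

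Genes around the 10 were looked at on GRCh37 within 100 kb. Next to *AGR2* in HT29, and beside *AGR3* described above, the log2 fold changes were 0.40 for *TSPAN13* (7274 bases away, adjusted p = 0.466), −0.24 for *AHR* (82926 bases away, adjusted p = 0.477) and −0.54 for *BZW2* (85287 bases away, adjusted p = 0.147), none of them called by limma. Next to *TFF2* in SW480, *ABCG1*, a cholesterol transporter 49112 bases away, rose from 17.4 to 316 (log2 fold change 4.12, standard error 0.16, adjusted p = 2.0e-08). In HT29, *ABCG1* had means of 616 in WT and 263 in KO cells (log2 fold change −1.93, standard error 1.81, adjusted p = 0.619). *TMPRSS3*, 5352 bases from *TFF1*, had means of 119 and 89.5 in SW480 (log2 fold change −0.40).

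Over the 24 libraries, the genes most like each of the 8 genes that reached 100 in a library were sought among 13829 genes by the Pearson correlation of log2 values, which are dominated by differences between lines and clones and are given as a description. *AGR2* was most like *FAM3D*, *PHGR1* and *TMEM238L* (r = 0.993, 0.992 and 0.991), and *SPDEF* like *EPS8L1*, *LY75* and *ERN2* (0.984, 0.984 and 0.981). *ERN2* encodes IRE1β, a stress sensor of the endoplasmic reticulum in mucus-secreting cells. Among the genes most like *SPINK1* were *ANKS4B* and *PDZK1IP1* (0.983 and 0.977), and *AGR3* like *LINC02532*, *TOX3* and *FABP1* (0.983, 0.982 and 0.980). *REG4* was most like *GAGE2A*, *CYP2C18* and *POU2AF2* (0.960, 0.948 and 0.947), and *TFF3* like *PAGE1*, *GAGE2A* and *TMEM134* (0.965, 0.964 and 0.935). *GAGE2A* and *PAGE1* belong to families of near-identical copies on the X chromosome, between which reads can be split. *TFF1* was most like *VRK3*, *ATP6V1B1* and *ADAM8* (0.970, 0.964 and 0.964), and *TFF2* like *RGS7*, *IGFL2-AS1* and *SSPN* (0.972, 0.958 and 0.954).

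Some other goblet cell genes were higher in the HT29 KO libraries. Of 35 listed genes 25 were tested, 8 were higher and 0 lower, where 1.90% and 0.402% of all genes were, and the median log2 fold change was 1.30, against 0.03 over all genes tested. The gel-forming mucin *MUC5AC* rose from 49.7 ± 20.1 to 6971 ± 2941 (log2 fold change 7.13, standard error 0.38, adjusted p = 5.7e-05). *ST6GALNAC1*, which adds sialic acid to mucin glycans, rose from 2.60 ± 0.473 to 228 ± 44.9 (log2 fold change 5.98, standard error 0.28, adjusted p = 2.8e-05, limma). The other 6 were *CAPN9*, *B3GNT6*, *SYTL2*, *BCAS1*, *FOXA3* and *KLK1*. *ST6GALNAC1* and *B3GNT6* were at the floor in all HT29 WT libraries, so that the sizes of their differences depend on the pseudocount. They entered the test through their KO libraries alone, and *CAPN9*, which did not exceed 18.8 in a WT library, did so mainly. For these genes the filter itself favours this direction, and the count of 8 is a description. *MUC5AC* was at 5099 and 6067 in KO 28 and at 11341 and 5379 in KO 38. The intestinal mucin *MUC2* did not exceed 66.5 in a HT29 library, and *CLCA1* did not exceed 1.30. *FCGBP*, which encodes a mucus protein bound to MUC2, lay between 2.03 and 18.8 in WT clones and between 47.0 and 843 in KO clones without passing the test (log2 fold change 4.56, standard error 1.02, adjusted p = 0.0551, limma). The count of 8 became 14 with DESeq2, 4 without KO 28A, 5 without clone KO 28 and 0 with the rounds of each clone averaged.

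Genes of the other intestinal lineages were compared in the same way in HT29, where 1.90% of all genes tested were higher and 0.402% lower. None of 3 enteroendocrine, 4 Paneth and 8 tuft cell genes that were tested passed limma. At an unadjusted p under 0.05 there were 1, 0 and 1, where 16.2% of all genes tested were. DESeq2 called 1 tuft cell gene and none of the others, and edgeR called none. Of 12 absorptive cell genes 2 were higher, *CEACAM7* (8.13 ± 6.56 to 363 ± 252) and *KRT20* (3669 ± 2192 to 16524 ± 4968). Over the 12 the median log2 fold change was 1.67, above the 1.30 of the other goblet cell genes. At an unadjusted p under 0.05, 6 of the 12 were higher and 0 lower, where 10.6% and 5.55% of all genes tested were. Among 18 Notch genes *DLL4* and *MFNG* were higher and *HES7* lower, each with fewer than 100 normalized counts, and *HES1* ran from 1177 to 1451 in WT clones and from 1334 to 2063 in KO clones without passing the test. Of 28 folding genes of the endoplasmic reticulum 1 was higher, *DNAJB9* (359 ± 63.4 to 934 ± 342). At an unadjusted p under 0.05, 8 of the 28 were higher and 0 lower. Of 13 markers of colonic epithelium 5 were higher, *CDH17*, *PHGR1*, *KRT20*, *KRT19* and *LGALS4*. Of these, *KRT20* is counted among the absorptive cell genes as well. Over the 13 markers the median log2 fold change was 1.56. At an unadjusted p under 0.05, 9 of the 13 were higher and 0 lower. *CDH17* and *DLL4* did not reach 10 in a WT library, nor *HES7* in a KO library, so that the filter itself favours their directions. With 1 library left out these counts were 0 to 3 for absorptive cell genes, 0 or 1 in each direction for Notch genes and 2 or 3 for markers of colonic epithelium, and *LUM* had too few libraries above 10 to be tested without any 1 of the 4 KO libraries. *HES1*, *MUC2*, *CLCA1*, *FCGBP*, *DLL4*, *MFNG*, *HES7*, *KRT19*, *LGALS4* and the other 6 goblet cell genes are named after their values were seen.

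In HCT116, where 3.17% of 15404 genes were higher and 1.89% lower, 2 of 16 other goblet cell genes tested were higher, the pioneer factor *FOXA1* (55.4 ± 23.4 to 186 ± 35.5) and *GALNT12*, which starts mucin O-glycans (358 ± 71.7 to 841 ± 108). In SW480, 7 of 19 were higher and 3 lower, where 10.7% and 6.76% of all genes were, with a median log2 fold change of 0.84 against −0.0042 over all genes. *MLPH*, a granule transport protein, rose from 241 ± 49.1 to 1755 ± 105, and *KLF4*, a zinc finger factor of goblet cell differentiation, from 223 ± 37.7 to 1242 ± 45.9. *FOXA2* fell from 430 ± 46.9 to 188 ± 31.9 and *TSPAN13* from 644 ± 124 to 292 ± 39.7. *MUC2*, also called higher, did not reach 10 in a SW480 WT library and entered the test through its KO libraries. *FCGBP*, also called lower, reached 10 in KO 21B alone among the KO libraries. For both the filter itself favours the direction called. In the same cells the marker *CDX2* fell from 1097 ± 263 to 106 ± 55.8. The Notch target genes *HEY2* and *NRARP* fell there, from 222 ± 29.7 to 9.20 ± 3.71 and from 1305 ± 181 to 148 ± 13.3. *LFNG*, on the same list, rose from 513 ± 37.4 to 1520 ± 158. *HES1* had medians of 1219 in SW480 WT and 1260 in SW480 KO libraries. *NRARP* was lower in HCT116 as well, falling from 458 ± 128 to 175.5 ± 56.5. Over the whole Notch list, 2 of 21 tested genes were higher and 1 lower in HCT116, and 3 of 24 were higher and 4 lower in SW480, beside the shares of all genes just given for each line. Of the 28 folding genes none was called in either line with limma, DESeq2 or edgeR, and at an unadjusted p under 0.05 there were 6 in HCT116 and 10 in SW480, where 29.6% and 54.5% of all genes tested were.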

How the data were processed

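RNA of 24 libraries was prepared with the TruSeq RNA Sample Prep Kit v2. For alignment to GRCh37 the authors used STAR 2.7.5b, and for counting per gene featureCounts 2.0.1. The annotation used for counting and the strand setting are not given in the sources used here. What the authors deposited for each library is a signal, namely counts scaled by a size factor of that library. Division by the step that 1 read makes returned whole numbers within 0.05 for 100% of genes, which recovered 22297049 to 29068378 reads per library. The authors' own tables of mean signal, log2 fold change and p-value were not used here. Symbols, positions and exon lengths are from GENCODE lifted to GRCh37, with a symbol for 95.8% of 58051 identifiers, and promoters are from RefSeq.

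A scaled signal calls for a test on the log scale, and limma 3.58.1 (trend, robust variances) was run on log2 of the value plus 1. A gene entered the test of genotype when 4 of the 8 libraries reached 10, that of clones when 2 of the 8 did, and that of lines when 4 of the 24 did. P-values were adjusted by Benjamini-Hochberg over all genes tested, and calls needed an adjusted p under 0.05 and an absolute log2 fold change over 1. All comparisons between libraries measure the spread between 2 clones and 2 rounds, so that p-values treat libraries of a clone as separate samples. Alternatives were DESeq2 1.42.0 and edgeR 4.0.16 on the recovered reads, pseudocounts of 0.1 and 5, no filter, the round as a replicate block, the mean of rounds per clone, the clone as a random effect, only the 12 WT libraries, and each library and clone left out. Added after seeing the data were a filter of 10 in 2 of the 8 libraries for genotype and of 10 in 4 of the 8 between clones, and the alternatives for the gene lists. The tests were also run on simulated reads drawn without differences between clones, so that this does not measure false calls due to clones. R 4.3.3 and Python 3.11.15 were used.

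The 10 genes and the gene lists were chosen with earlier results of these data known. Beside the 10 genes, up to 2 called genes per list, line and direction with a mean of at least 100 and no overlap were named, with the 3 most alike genes for each of the 10 that reached 100 in 1 library, and the nearest genes tested within 100 kb. A few genes that this rule names are not reported here. Of the lists, *PRSS2*, *CD24* and *PECAM1* had no match.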

Additional observations from a re-analysis of the deposited data

Results flagged for a closer look

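Within the 4 libraries of a group, a library was singled out where its gap to the nearest other was large against the range of the group by Dixon's criterion. Of 28 groups in which at least 1 library had more than 3 reads, 5 had such a library. They were *SPINK1* in HT29 KO 38B (15856, against 2506 to 4235), and, in HCT116, *ATOH1* in WT 6B (0.952, against 4.59 to 4.64) and *REG4* (9.63), *SPINK1* (4.28) and *AGR2* (4.28) in KO 47A. The HCT116 values rest on 1 to 9 reads.

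The KO effect differed between lines in 8 tests. Between HT29 and SW480 the differences on the log2 scale were −5.04 for *TFF2*, 9.62 for *REG4*, 5.33 for *SPINK1* and 3.82 for *AGR2*. Between HT29 and HCT116 they were 8.54 for *REG4*, 4.97 for *SPINK1* and 3.46 for *AGR2*, and between HCT116 and SW480 −3.93 for *TFF2*. Except for *TFF2* between HT29 and SW480, 1 of the lines was at or near the floor in both genotypes. The size of those differences depends on the pseudocount. *REG4*, *SPINK1* and *AGR2* entered the tests through HT29 libraries alone, so that the filter itself favours a difference from HT29.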

How the results depend on the processing

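Over 49 log2 fold changes of the 10 genes and 775 alternative values, 705 kept their direction and side of the threshold, 58 lost a call, 10 gained one and 2 reversed. The reversed ones were those of *TFF2* in HT29 without WT 40 (0.45) and without KO 38 (0.59). In HT29 KO against WT, 3 genes were called. The count was 5 with DESeq2, 1 with no filter, 1 without clone KO 28 and 0 with the rounds averaged per clone (4 at an unadjusted p under 0.05), and it was 1 or 2 with any 1 library left out. In SW480 the count of 1 became 2 with no filter, which added *TFF1*. For the KO effect between HT29 and HCT116 the count of 3 became 1 with DESeq2, 0 with edgeR, 1 with a pseudocount of 0.1 and 0 with rounds averaged. Between HT29 and SW480 the count of 4 became 2, 1, 2 and 1 in the same order, and between HCT116 and SW480 the count of 1 became 0 in each of the 4. With averaged rounds 3 and 1 genes had an unadjusted p under 0.05 in the comparisons with HCT116. Among other goblet cell genes, the 2 higher in HCT116 became 4 without KO 47, and the 3 lower in SW480 became 1 without WT 4. The cause of these changes was not tested. With the round as a replicate block, HT29 had 2 calls (*AGR2* and *REG4*), and the counts of the other KO, WT and interaction comparisons were unchanged. The differences between rounds of 2 clones correlated across genes from −0.309 to 0.424 in HT29, 0.182 to 0.374 in HCT116 and −0.0411 to 0.127 in SW480. The correlation was over 0.1 in all 6 pairs of clones in HCT116, in 2 of 6 in HT29 and in 1 of 6 in SW480. With 2 clones per genotype, a clone cannot be told apart from its editing history, and levels under 3 reads were not measurable at this depth.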
